A study of Mus musculus with 5 samples.

Results

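The histone genes described here were 39 of the 19087 genes named by a probe with 1 gene symbol, and 49 of the 44290 features on the array, in mouse neuroblastoma cells given extra Dyrk1a. They were chosen by name: every probe annotated to a single gene of the H1f, H2ac, H2bc, H3c or H4c series, or to H2ax, H2az1, H2az2, H3f3a or H3f3b. N18, a murine neuroblastoma line, received either pAd-Dyrk1a, an adenovirus with the coding sequence of Dyrk1a, or the control adenovirus pAd-Track-CMV, so both sides of each ratio carried virus. Dyrk1a encodes a protein kinase. The promoter that drives it, the dose of virus and the time after infection are not named in the labels. Each of 5 Agilent 2-colour arrays set 1 Dyrk1a RNA against 1 control vector RNA, with Dyrk1a in Cy5 on replicates 1, 2 and 3 and in Cy3 on replicates 4 and 5. The series describes the 5 as independent samples. Nothing in the sources used here says that they came from separate cultures, so the errors below measure the spread between these arrays, which may be partly technical.

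Histones are the proteins around which DNA is wound. H2A, H2B, H3 and H4 form the nucleosome core and H1 binds the linker DNA between cores. The replication-dependent genes lie in clusters, are transcribed mainly in S phase when new chromatin is assembled, and make mRNAs that end in a stem-loop in place of a poly(A) tail. Variant histones such as H3.3 (H3f3a and H3f3b) and H2A.Z (H2az1 and H2az2) come from genes outside the clusters, have polyadenylated mRNAs and are made throughout the cell cycle, while H2ax yields both kinds of mRNA. The labels name an Agilent linear amplification kit, and do not say whether its primer needs a poly(A) tail.

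Of the 49 probes, 36 named 31 cluster genes and 13 named 8 variant genes, the linker histones H1f7, H1f8 and H1f10, which lie outside the clusters, being counted with the variants. In a gene table of assembly GRCm38.p6, 25 of the cluster genes were on chromosome 13 and 6 on chromosome 3. A log2 ratio on all 5 arrays was present for 39 probes of 32 genes, 28 cluster and 11 variant probes, and these entered the fit. That was 79.6% of the member probes, against 53.0% of all features with 1 gene symbol. Many histone genes of a family have near-identical coding sequences, and how far each probe separates them is not known here, so a value given for a cluster gene may include signal from its relatives.

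The following facts hold for the whole series. The Dyrk1a probe measured on all arrays was at 2.46, 2.30, 1.93, 3.02 and 2.38 in replicates 1 to 5 (log2 ratio after each array was centred on its median), above 0 in both dye orientations. Its limma adjusted p was 0.00953 over 20113 features, and it was the only feature called at 0.05, which is 0.00497% of those tested. Replicate 2 stood apart: the interquartile range of its ratios was 0.318, against 0.165 to 0.194 on the other arrays. The table holds ratios and no levels, so the labelled cell type could not be checked by the level of its markers. A ratio on all 5 arrays was present for 7 of 13 neuroblast or neuronal markers, 1 of 6 glial, 3 of 6 fibroblast or smooth muscle and 1 of 6 immune markers.

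With Dyrk1a, 36 of the 39 histone probes lay below 0 in the fit, as did 47.2% of all features. The median of their fitted log2 ratios was -0.21, and that of all features 0.0049. The fitted ratios ran from -0.39 for H4c14 to 0.21 for a second probe of H1f10. A fitted ratio under -0.2 was found for 20 of the 39, and over all features for 2.54%. Below 0 on each of the 5 arrays were 10 probes, against 5.55% of all features, and 0 were above 0 on all 5. These ratios were known when the group was chosen, so they are a description and no test of the group was made. In these bulk RNA samples, fewer cells of a kind and less RNA per cell cannot be told apart.

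No histone probe passed the threshold of the fit. In limma, 0 of the 39 had an adjusted p under 0.05, where 0.00497% of all features did, and the lowest was 0.0862. At an unadjusted p under 0.05 there were 22, all below 0, against 10.1% of all features in either direction and 5.93% in that direction. The count turned on replicate 2. Without it 19 of the 39 passed, each as lower with Dyrk1a, where 2.15% of all features passed in that direction and 2.95% in either. Those 19 were 7 probes of cluster H2A genes, 5 of H4, 3 of H1, 1 of H2B, and the variants H2ax, H2az1 and H2az2, while 0 of the 7 H3 probes were among them. With the arrays scaled to the same spread 7 passed, all lower, against 1.27% of all features in that direction and 1.5% in either. With quantile normalization it was 7, all lower, against 1.46% and 1.77%, and with array weights 23, all lower, against 5.53% and 9.61%.

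**Figure D1:**
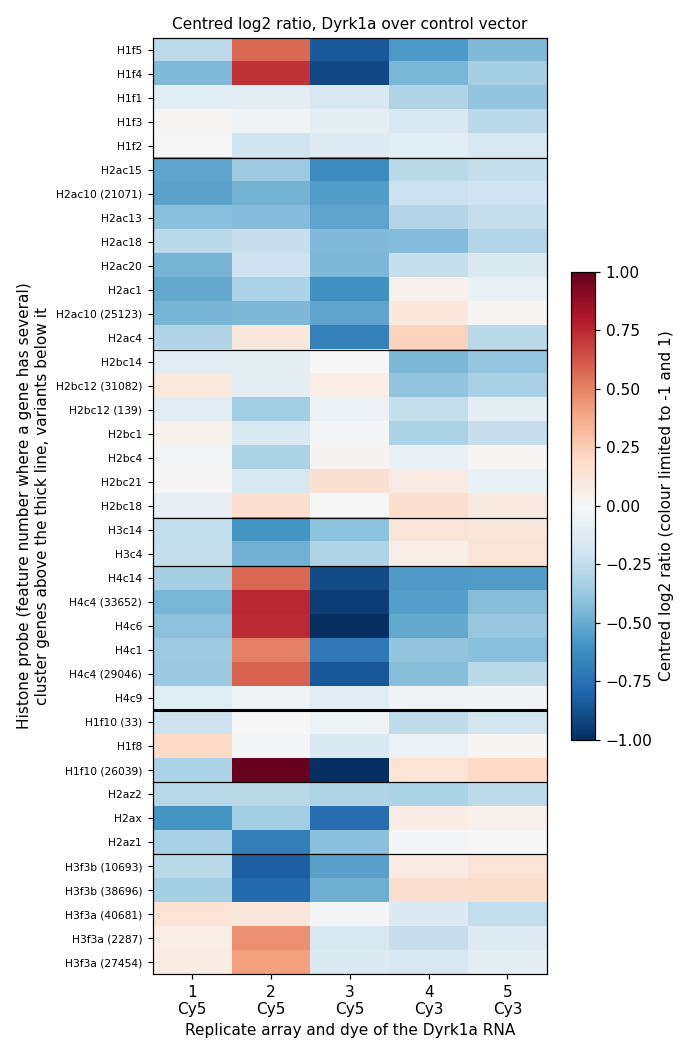
Centred log2 ratio of Dyrk1a over control vector for 39 histone probes (rows, grouped by histone and ordered within each by the fitted ratio) on each of 5 arrays (columns, with the dye of the Dyrk1a RNA). Blue is below 0 and red above 0, with the colour limited to -1 and 1. The H4 probes other than H4c9, with H1f4 and H1f5, are red on replicate 2 and blue on the other 4 arrays, while the H3c and H3f3b probes are blue with Dyrk1a in Cy5 and pale red with it in Cy3.

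The fitted values differed by histone. Among cluster genes the median was -0.32 for 6 H4 probes, -0.31 for 8 H2A probes, -0.23 for 5 H1 probes, -0.16 for 7 H2B probes and -0.14 for 2 H3 probes. Among variants it was -0.25 for 3 H2A probes, -0.058 for 5 H3 probes and -0.0048 for 3 H1 probes. These differences between histones were not tested.

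**Figure D2:**
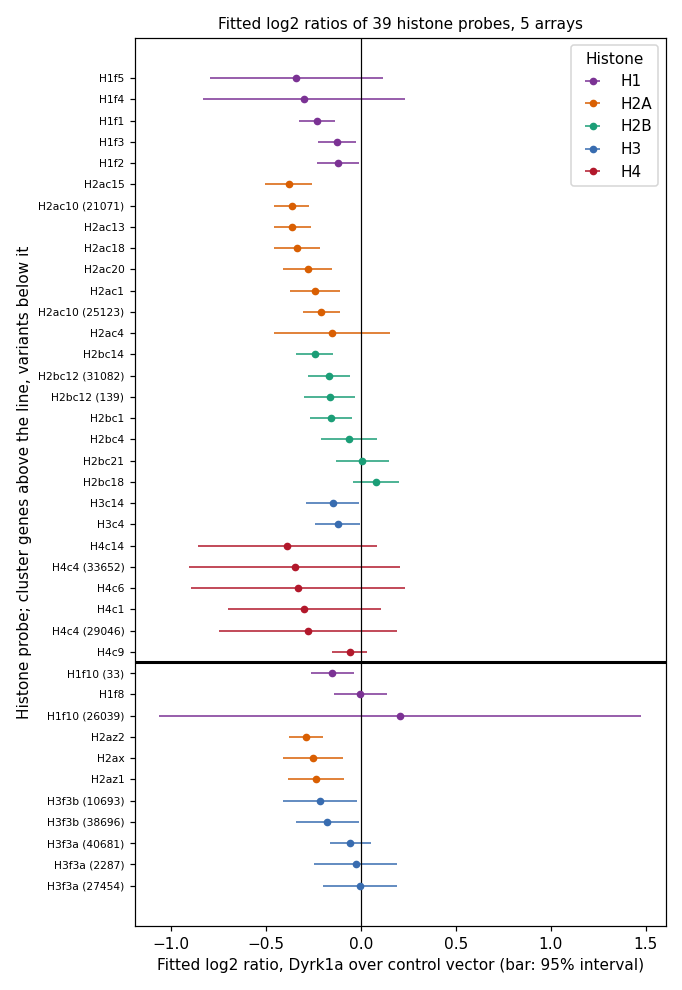
Fitted log2 ratio of Dyrk1a over control vector for the 39 histone probes (points), with 95% intervals of the limma fit over 5 arrays (bars), coloured by histone, cluster genes above the line and variants below it. The intervals of the H4 probes other than H4c9, of H1f4, of H1f5 and of the second H1f10 probe are the widest, and those of the H2A probes other than H2ac4 lie wholly below 0.

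The cluster genes of H2A, the core histone that pairs with H2B, all had fitted ratios below 0. Of their 8 probes, 5 were below 0 on every array. H2ac15 was at -0.52, -0.36, -0.64, -0.27 and -0.24 in replicates 1 to 5. Its fitted log2 ratio was -0.38 (SE 0.051, 95% interval -0.50 to -0.26, limma adjusted p = 0.0958). H2ac13 was at -0.42, -0.43, -0.53, -0.29 and -0.24, with a fitted ratio of -0.36 (limma adjusted p = 0.0862). All arrays were below 0 for both genes, with the arrays of Dyrk1a in Cy5 farther from 0 than those of Cy3.

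H2ac18, from the chromosome 3 cluster, was at -0.27, -0.23, -0.44, -0.43 and -0.29, and here the orientations overlapped. H2ac20, from the same cluster, was at -0.46, -0.21, -0.45, -0.23 and -0.14. Their fitted ratios were -0.34 (SE 0.050) and -0.28 (SE 0.053), with limma adjusted p of 0.106 and 0.149. H2ac1, the testis H2A gene known as Th2a, was at -0.51, -0.32, -0.61, 0.045 and -0.068, near 0 in Cy3 only. H2ac4 varied most among the cluster H2A probes, at -0.30, 0.11, -0.68, 0.23 and -0.27, with a fitted ratio of -0.15 (SE 0.13) whose interval ran from -0.46 to 0.15.

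H2ac10 had a pair of probes annotated to the same transcript. Feature 21071 was at -0.53, -0.47, -0.56, -0.22 and -0.20, and feature 25123 at -0.46, -0.45, -0.53, 0.11 and 0.012. The probes differed by at most 0.073 with Dyrk1a in Cy5, and by up to 0.33 with it in Cy3, where feature 25123 was above 0. Their fitted ratios were -0.37 and -0.21.

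H2B, the partner of H2A in the core, was closer to 0, and 3 of its 7 probes were lower in the other dye orientation. H2bc14 was at -0.12, -0.096, -0.0070, -0.45 and -0.39 in replicates 1 to 5, with a fitted ratio of -0.24 (SE 0.040, limma adjusted p = 0.110). Feature 31082 of H2bc12 was at 0.095, -0.098, 0.064, -0.40 and -0.32, and feature 139 of the same gene at -0.11, -0.34, -0.056, -0.24 and -0.096. For H2bc14 and feature 31082 the Cy3 arrays lay below every Cy5 array, while for feature 139 the orientations overlapped.

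H2bc1, the testis H2B gene Th2b, was at 0.038, -0.15, -0.022, -0.32 and -0.23. H2bc4 was at -0.018, -0.31, 0.031, -0.069 and 0.0080, so that replicate 2 alone was far from 0. The H2B probes with the highest fitted ratios were both from the chromosome 3 cluster. H2bc21 was at 0.0080, -0.16, 0.15, 0.083 and -0.063, and H2bc18 at -0.082, 0.17, 0.0010, 0.17 and 0.093, with intervals of -0.13 to 0.15 and -0.041 to 0.20 around the fitted 0.0053 and 0.080.

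H2ac1 and H2bc1 are divergent neighbours, and their promoter windows share 220 of 300 bases. Their values differed by dye orientation: H2ac1 was below H2bc1 on each Cy5 array and above it on each Cy3 array. The fitted ratios were -0.24 for H2ac1 and -0.16 for H2bc1, and whether the promoters bear on these was not tested. The H2ac1 window, chr13:23934187-23934486 on the plus strand of GRCm38.p6, is shown because the windows overlap, from RefSeq and 5′ to 3′. Capitals mark CCAAT, the TATA box as TATAAA, the octamer ATTTGCAT known from H2B promoters, and a box known from H1 promoters, AAACACA, all on either strand. The windows printed were chosen after the values were seen.
H2ac1: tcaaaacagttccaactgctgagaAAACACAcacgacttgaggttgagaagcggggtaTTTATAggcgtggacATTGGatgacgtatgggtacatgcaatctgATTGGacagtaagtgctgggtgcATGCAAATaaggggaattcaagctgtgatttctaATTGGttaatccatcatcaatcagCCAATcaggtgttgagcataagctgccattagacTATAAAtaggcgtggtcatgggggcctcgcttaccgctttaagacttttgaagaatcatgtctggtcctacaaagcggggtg
The window holds CCAAT 4 times and TATAAA 2 times. It holds ATTTGCAT 1 time and AAACACA 1 time.

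H3, with H4 the most conserved part of the core, was split by dye orientation. H3c4 was at -0.24, -0.48, -0.31, 0.066 and 0.12 in replicates 1 to 5, and H3c14 at -0.25, -0.60, -0.41, 0.12 and 0.12. Every Cy5 array was below 0 and every Cy3 array above it. The fitted ratios, which give both orientations equal weight, were -0.12 (SE 0.049) and -0.15 (SE 0.058). H3c1, the other cluster H3 gene here, had a value on 2 arrays only, 0.14 and 0.17 as deposited in replicates 1 and 2.

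The variant genes H3f3a and H3f3b encode the same protein, H3.3, the form of H3 laid down outside replication, but their probes lay in a different order with each dye orientation. H3f3b had a pair of probes. Feature 10693 was at -0.27, -0.82, -0.55, 0.085 and 0.14, and feature 38696 at -0.33, -0.77, -0.49, 0.17 and 0.18. They differed from each other by at most 0.085 on any array, and both followed the H3c pattern. H3f3a had 3 probes. Features 2287 and 27454 were at 0.069, 0.46, -0.16, -0.23, -0.13 and at 0.071, 0.41, -0.14, -0.16, -0.093, within 0.070 of each other. Feature 40681 was at 0.14, 0.11, -0.023, -0.14 and -0.25. On replicates 1, 2 and 3 every H3f3a probe was above every H3f3b probe, and on replicates 4 and 5 below. For H3f3a, whose orientations overlapped in features 2287 and 27454, no dye effect passed (limma adjusted p of 0.214 to 0.502). With all 5 arrays none passed for H3f3b either (limma adjusted p of 0.118 and 0.0686), nor for H3c4 (0.0985) or H3c14 (0.0898). The fitted ratios were -0.22 and -0.18 for H3f3b and -0.029, -0.0059 and -0.058 for H3f3a, in the order given. Without the dye term in the fit, features 2287 and 27454 of H3f3a were at 0.0010 and 0.018.

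The promoter windows of this pair are shown because the genes make the same protein and their probes differ. They are taken from RefSeq for GRCm38.p6, H3f3a at chr1:180813556-180813855 on the minus strand and H3f3b at chr11:116024455-116024754 on the minus strand, 5′ to 3′, with the same motifs in capitals.
H3f3a: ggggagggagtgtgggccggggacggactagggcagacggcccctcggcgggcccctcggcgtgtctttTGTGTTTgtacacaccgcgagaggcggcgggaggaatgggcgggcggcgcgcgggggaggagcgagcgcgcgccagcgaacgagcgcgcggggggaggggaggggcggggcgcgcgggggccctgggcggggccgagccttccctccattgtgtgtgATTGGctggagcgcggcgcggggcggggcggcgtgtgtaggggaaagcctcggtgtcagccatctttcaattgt
H3f3b: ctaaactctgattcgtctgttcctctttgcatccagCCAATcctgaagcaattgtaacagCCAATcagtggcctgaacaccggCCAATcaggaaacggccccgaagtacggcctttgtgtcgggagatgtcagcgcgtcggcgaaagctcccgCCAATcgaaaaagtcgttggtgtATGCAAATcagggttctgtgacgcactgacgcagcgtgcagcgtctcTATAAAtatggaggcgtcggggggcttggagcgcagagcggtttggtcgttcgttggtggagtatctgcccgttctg
The H3f3b window holds CCAAT 4 times, TATAAA 1 time and ATTTGCAT 1 time. The H3f3a window holds CCAAT 1 time and AAACACA 1 time.

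H4 had the lowest median fitted ratio and, beside H1f4, H1f5 and 1 H1f10 probe, the widest errors. Feature 33652 of H4c4 was at -0.46, 0.76, -0.94, -0.55 and -0.43 in replicates 1 to 5, and feature 29046 of the same gene at -0.37, 0.59, -0.85, -0.42 and -0.27. H4c14 was at -0.33, 0.57, -0.89, -0.57 and -0.56. All 3 probes were below 0 on 4 arrays and above 0 on replicate 2. H4c6 was at -0.41, 0.75, -0.99, -0.51 and -0.38, and H4c1 at -0.37, 0.50, -0.72, -0.40 and -0.42. The 5 probes thus shared 1 pattern, whether annotated to chromosome 13 genes or to the chromosome 3 gene H4c14. How far they separate these H4 genes is not known here.

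Their fitted ratios were -0.28 to -0.39 with limma adjusted p of 0.586 or more. For H4c14 the SE was 0.19 and the 95% interval -0.86 to 0.083. Without replicate 2 the fitted ratio of H4c14 was -0.59 (limma adjusted p = 0.0195). The median of the 5 probes was then -0.58 in place of -0.33, a shift of over 1.5 times on the log2 scale that follows from leaving out 1 array. Without replicate 3, the lowest array of each of the 5, the fitted ratios lay closer to 0. They ran from -0.22 for H4c14 (limma adjusted p = 0.626) to -0.12 for feature 29046 of H4c4, and none passed. H4c9 had none of this. Its probe was at -0.12, -0.037, -0.11, -0.032 and -0.031, with a fitted ratio of -0.060. The H4c9 probe is annotated to an expressed sequence tag that was not matched to the gene table, unlike the other 5.

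Among the linker histones of the clusters, H1f4 and H1f5 followed the H4 pattern. H1f5 was at -0.26, 0.58, -0.84, -0.58 and -0.44 in replicates 1 to 5, and H1f4 at -0.44, 0.72, -0.90, -0.46 and -0.33. For each, replicate 2 was above 0 and the other 4 arrays below it. The difference between replicates 2 and 3 was 1.22 to 1.74 over these 2 probes and the 5 of H4. Of all 20113 features, 123, or 0.612%, had a difference that large, and the median over all features was -0.0060. Without replicate 2, H1f4 was at -0.53 and H1f5 at -0.53, with limma adjusted p of 0.0181 and 0.0280. Without replicate 3, their lowest array, H1f4 was at -0.13 and H1f5 at -0.18, with limma adjusted p of 0.798 and 0.654. This set of 7 probes was formed after its values were seen and was not tested.

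The windows of H4c4, H1f4 and H1f5 are shown because the probes of these genes shared a pattern over the arrays. From RefSeq for GRCm38.p6, H4c4 is at chr13:23581318-23581617 on the plus strand, H1f4 at chr13:23622509-23622808 on the minus strand and H1f5 at chr13:21780576-21780875 on the minus strand, 5′ to 3′, with the same motifs in capitals.
H4c4: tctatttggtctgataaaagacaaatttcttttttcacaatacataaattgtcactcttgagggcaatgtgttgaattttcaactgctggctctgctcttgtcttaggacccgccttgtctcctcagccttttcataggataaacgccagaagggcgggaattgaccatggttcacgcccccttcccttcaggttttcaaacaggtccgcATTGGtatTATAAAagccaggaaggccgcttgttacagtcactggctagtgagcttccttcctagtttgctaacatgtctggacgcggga
H1f4: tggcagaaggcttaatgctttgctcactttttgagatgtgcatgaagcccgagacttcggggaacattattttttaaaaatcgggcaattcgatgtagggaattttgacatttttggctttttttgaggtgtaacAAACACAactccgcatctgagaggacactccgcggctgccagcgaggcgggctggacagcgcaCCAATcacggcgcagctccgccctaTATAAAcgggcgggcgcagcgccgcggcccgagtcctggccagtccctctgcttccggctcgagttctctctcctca
H1f5: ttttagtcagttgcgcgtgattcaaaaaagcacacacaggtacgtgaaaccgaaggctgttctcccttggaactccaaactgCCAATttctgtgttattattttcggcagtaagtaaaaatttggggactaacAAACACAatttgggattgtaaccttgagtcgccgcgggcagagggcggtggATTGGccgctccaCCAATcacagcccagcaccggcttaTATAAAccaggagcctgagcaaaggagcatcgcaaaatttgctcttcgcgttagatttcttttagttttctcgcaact
All 3 hold TATAAA 1 time, and the window of H4c9 also holds it 1 time. H1f4 and H1f5 hold AAACACA and H4c4 does not. Whether these motifs bear on the pattern was not tested.

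The other cluster H1 genes lacked this pattern. H1f1 was at -0.11, -0.093, -0.16, -0.30 and -0.40, below 0 on every array, with a fitted ratio of -0.23 (SE 0.039, limma adjusted p = 0.123). H1f2 and H1f3 had fitted ratios of -0.12 and -0.13 and array values between -0.27 and 0.010. These 3 genes stayed below 0 on replicates 3, 4 and 5.

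The linker histones outside the clusters were near 0 or uneven. The oocyte gene H1f8 was at 0.20, -0.0080, -0.14, -0.057 and 0.0080. For H1f10, a linker histone of somatic cells, feature 33, annotated to the reference transcript, was at -0.21, 0.0030, -0.052, -0.25 and -0.18, with a fitted ratio of -0.15. Feature 26039, annotated to an expressed sequence tag, was at -0.32, 2.48, -1.44, 0.14 and 0.20. The H1f10 probes therefore differed by 0.11 to 2.48 depending on the array. The SD of feature 26039 over the arrays was 1.43, its 95% interval ran from -1.06 to 1.48, and its fitted ratio of 0.21 was -0.35 without replicate 2.

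**Figure D3:**
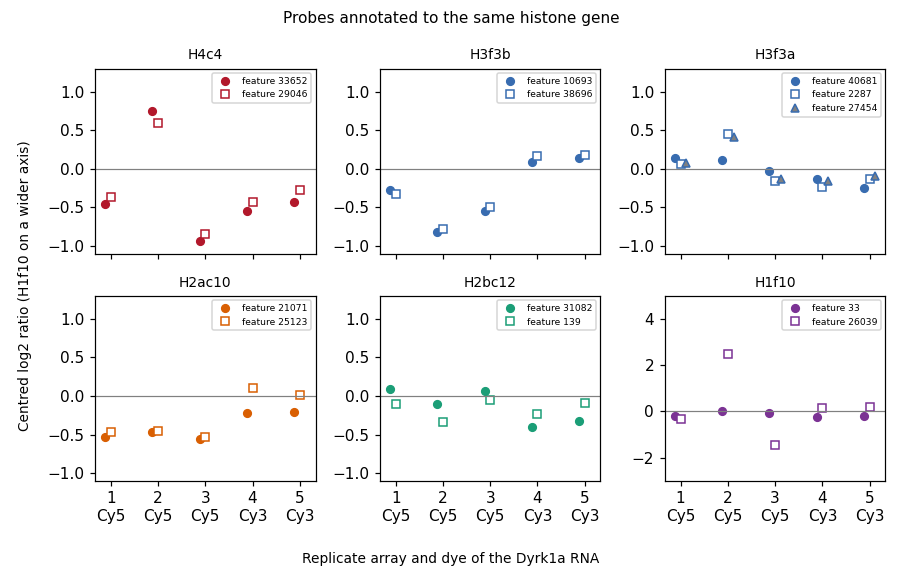
Centred log2 ratios on each array for the 6 histone genes with several probes measured on all 5 arrays, each marker being 1 probe. The probes of H4c4 and of H3f3b lie close together on every array, the H2ac10 probes part on the Cy3 arrays, and the H1f10 probes, on a wider axis, part on replicates 2 to 5 and most on replicates 2 and 3.

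Among the H2A variants, H2az2, which encodes a form of H2A.Z, was the steadiest of all 39 probes. It was at -0.29, -0.28, -0.30, -0.32 and -0.26, with an SD over the arrays of 0.022. Its fitted ratio was -0.29 (SE 0.037, 95% interval -0.38 to -0.20), equal to a ratio of 1 to 1.22, which did not pass (limma adjusted p = 0.0933). H2az1, the other H2A.Z gene, was at -0.32, -0.68, -0.42, -0.013 and 0.0050. H2ax, whose protein is phosphorylated at DNA breaks, was at -0.60, -0.34, -0.76, 0.072 and 0.040. For these genes the values lay well below 0 with Dyrk1a in Cy5 and about 0 with it in Cy3. Their fitted ratios were -0.24 (SE 0.060) and -0.25 (SE 0.065).

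Dye orientation was a measure that the choice of members did not use, and its effect was fitted for each probe beside the Dyrk1a effect. Orientation also divides replicates 1, 2 and 3 from replicates 4 and 5. A dye effect and a difference between these sets of arrays therefore cannot be told apart. The H2ac10 probe feature 25123 was the single histone probe that passed, at -0.27 (limma adjusted p = 0.0315), and 1 of 39 is near the 2.2% of all features that passed in either direction or the 1.39% that passed in this one. This call was lost without replicate 1 or 3, where the fit also had fewer arrays to rest on. With replicate 4 or 5 left out, 1 array had Dyrk1a in Cy3, so the call cannot be judged there. Without replicate 2, 14 histone probes passed, against 13.2% of all features. With the arrays scaled to the same spread 8 passed, against 5.55% of all features, with quantile normalization 8, against 6.04%, and with array weights 18, against 27.4%. Of the 14 without replicate 2, 11 were lower with Dyrk1a in Cy5: 5 of cluster H2A, 2 of cluster H3, 2 of H3f3b, H2ax and H2az1. The remaining 3, H2bc14, H2bc1 and feature 31082 of H2bc12, were lower with Dyrk1a in Cy3. No H1 or H4 probe passed there. Over all members, 6 probes were below 0 on every Cy5 array and above 0 on every Cy3 array, where 9.12% of all features were.

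**Figure D4:**
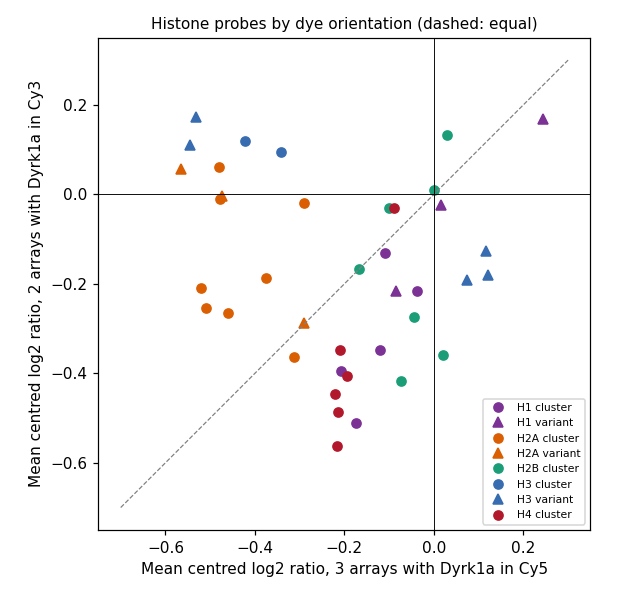
Mean centred log2 ratio over the 3 arrays with Dyrk1a in Cy5 (horizontal) against the mean over the 2 arrays with it in Cy3 (vertical) for 39 histone probes, coloured by histone, circles for cluster genes and triangles for variants. H3c, H3f3b, H2ax and 1 H2ac10 probe lie below 0 horizontally and above 0 vertically, most H2A probes lie left of the dashed line of equality, and the H4 and H3f3a probes lie right of it except H4c9.

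Cluster genes were then set against variants on each array separately. The classes mostly differ in whether their mRNAs have a poly(A) tail. Whether the labelling kit took up both kinds of mRNA alike is not known here. The median of the 28 cluster probes was -0.26, -0.12, -0.45, -0.25 and -0.24 in replicates 1 to 5, below 0 on all 5 arrays. The median of the 11 variant probes was -0.27, -0.0080, -0.30, -0.057 and 0.0050. The cluster median minus the variant median was 0.0045, -0.12, -0.14, -0.19 and -0.25 on these arrays, so replicate 1 showed next to no difference. The difference of the fitted medians, cluster minus variant, was -0.088, and the array differences had an SD of 0.094. Under the alternatives the difference was below 0 each time. It was -0.0097 without replicate 3, -0.012 with every linker histone counted as a cluster gene and -0.047 with gene means. It was -0.15 with quantile normalization, -0.14 with array weights, -0.14 with H2ax counted as a cluster gene and -0.16 over every probe with a value. The ranges of the classes overlapped on each array.

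**Figure D5:**
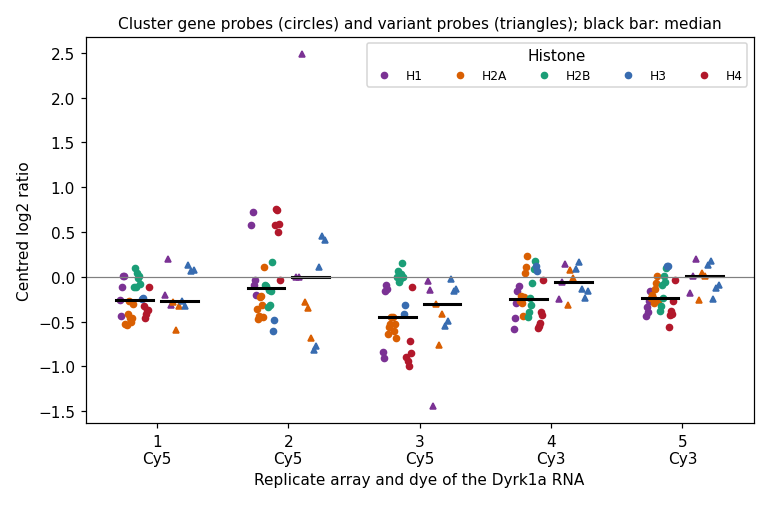
Centred log2 ratio of each cluster gene probe (circles) and variant probe (triangles) by array and dye of the Dyrk1a RNA, coloured by histone, with the median of each class as a black bar. The cluster medians lie below 0 on all 5 arrays, from -0.45 to -0.12, and the variant medians from -0.30 to 0.0050, with wide overlap of the points.

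By chromosome of the cluster, the fitted median was -0.24 over 22 probes of chromosome 13 and -0.22 over 6 probes of chromosome 3. All 22 fitted ratios of chromosome 13 were below 0, as were 4 of the 6 of chromosome 3, the others being H2bc18 and H2bc21. The array medians were less alike. They were -0.28, -0.097, -0.53, -0.28 and -0.25 for chromosome 13 in replicates 1 to 5. For chromosome 3 they were -0.26, -0.185, -0.43, -0.074 and -0.10. The difference was not tested.

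Promoter windows of 300 bases, 250 before and 50 after the start, were found in RefSeq for 34 of the 39 genes. CCAAT was in 26 of 28 cluster windows and 5 of 7 variant windows, against 37.4% of the 32851 windows of all genes. TATAAA was in 19 of 28 and 1 of 7, against 13.6%. The octamer ATTTGCAT was in 5 of 7 H2B and 5 of 9 H2A windows and in 0 of 6 H1, 2 H3 and 4 H4 cluster windows, against 1.74%. AAACACA was in 5 of 6 cluster H1 windows, against 7.18%. The E2F-type letters TTTCCCGC, TTTGGCGC, TTTCGCGC or TTTGCCGC were in 4 of 28 cluster and 0 of 7 variant windows, against 2.26%. Both strands were searched, no motif contains another, and divergent neighbours share windows, so the counts are not independent.

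The 10 member probes without a value on every array were left out of the fit. They were H1f3, H1f4, H1f6, H1f7, H2ac6, H2ac8, H2bc6, H2bc22, H3c1 and H2az1 probes with values on 1 to 4 arrays, and their deposited values ran from -0.14 to 0.21. The incomplete H1f4 probe was at -0.0060, 0.10 and -0.067 in replicates 1, 3 and 4, where the fitted probe was between -0.90 and -0.44. The incomplete H2az1 probe was at 0.017 in replicate 1.

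Genes that act on histones had medians closer to 0. For histone pre-mRNA processing and histone gene activation, 30 probes of 20 genes had a median fitted ratio of -0.020, with 17 below 0, and 0 passed in either direction in limma. Ccne2, the cyclin E2 that activates histone transcription through NPAT, had its lower probe at -0.11, -0.42, 0.079, -0.68 and -0.40. The fitted ratio of that probe was -0.34 (limma adjusted p = 0.221). Feature 1881 of Ccne2 was at -0.18, -0.45, -0.073, -0.51 and -0.35, below 0 on all 5 arrays. Its fitted ratio was -0.33 (limma adjusted p = 0.159). Npat itself was at -0.064, -0.17, -0.45, -0.47 and -0.19, below 0 on all 5 arrays, with a fitted ratio of -0.28. At the other end, Sympk, a scaffold of the cleavage complex, was at 0.13, and the 3 probes of the endonuclease gene Cpsf3 were at 0.062, 0.083 and 0.11, each highest on replicate 2.

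For histone chaperones and deposition factors, 56 probes of 33 genes had a median of -0.044, with 36 below 0 and 0 passing. Hjurp, the chaperone of the centromeric H3 form, had 4 probes that disagreed in size. Feature 16669 was at -0.38, -0.33, -0.52, -0.34 and -0.18, with a fitted ratio of -0.34 (SE 0.049). The other Hjurp probes had fitted ratios of -0.17, -0.099 and -0.050, and features 4071 and 34273 were above 0 on replicate 2. Asf1b, an H3 and H4 chaperone of dividing cells, was at -0.41, -0.42, -0.27, -0.25 and -0.18, with a fitted ratio of -0.29 (SE 0.043). Asf1b and feature 16669 of Hjurp were below 0 on all 5 arrays, each with a limma adjusted p of 0.106. Supt6 had the highest fitted ratio, 0.11. Feature 44250 of Nap1l4 was also at 0.11, with 0.67 on replicate 2, while the other Nap1l4 probes were at -0.042 and -0.036. Without replicate 2, 11 of the 56 probes passed as lower, and 1 of the 30 of the processing list, against 2.15% of all features.

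A list of other histone genes outside the naming rule, 11 probes of 6 genes, had a median of -0.0088, with 6 below 0 and 0 passing. The genes were Cenpa, H2aj, H2al2a, H2aw, H2bu2 and Macroh2a1, and not all need be variants. Without replicate 2, 4 of the 11 probes passed as lower, against 2.15% of all features. H2aj, an H2A variant gene, had a pair of probes of the same transcript that disagreed. Feature 12057 was at -0.49, -0.35, -0.58, -0.24 and -0.099, with a fitted ratio of -0.32. Feature 40212 of H2aj was at 0.21, 0.0020, 0.083, -0.016 and -0.22, with a fitted ratio of -0.0088. Cenpa, which encodes the H3 form of centromeres, was at -0.26, -0.28, -0.25, -0.28 and -0.31, nearly the same on every array, with a fitted ratio of -0.28 (SE 0.037, limma adjusted p = 0.0955). H2al2a, a testis variant, was at 0.064, and the 3 probes of Macroh2a1, a macroH2A gene, were at 0.045, 0.063 and 0.063.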

How the data were processed

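Log2 ratios deposited by the authors were used as given, for 44290 features on 5 arrays, with 0 columns of other samples. How they scanned, corrected and normalized them is not stated in the labels, and without intensities dim probes could not be filtered. The log base and direction are unstated. The lowest value is -4.2, which on a base of 10 would be a ratio of 1 to 15849, and log2 was assumed. If the logs are natural, each log2 value here is too small by a factor of 1.44. On a base of 10, which 1 extreme value cannot exclude, the factor would be larger. The Dyrk1a probe, above 0 in both orientations, set the direction as Dyrk1a over control vector.

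Features measured on all 5 arrays (20113) were centred on each array's median and fitted, probe by probe, with limma 3.58.1 in R 4.3.3 (lmFit, eBayes, 2-sided, 3 residual and 3.23 prior degrees of freedom). The model had a Dyrk1a and a dye term. P-values were adjusted by Benjamini-Hochberg over all features and called under 0.05. The fit was tested on simulated data. The precision is limited by the number of arrays. Alternatives were the dye term, centring, scaling, quantile normalization, array weights, 4 or more arrays, gene means, each array left out and the split of the classes.

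Members and lists were chosen with earlier results of these data known. Array values were named by rule for the 10 lowest and 10 highest probes and every variant, and most other probes were added afterwards. Lists were named by their 2 lowest and 2 highest genes. Gene symbols came from the platform annotation, with all 39 genes matched to GRCm38.p6 by Entrez identifier and 42 of 49 probe accessions matched. Python 3.11.15, pandas 2.3.3 and matplotlib 3.10.9 made the tables and plots.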

Additional observations from a re-analysis of the deposited data

Results flagged for a closer look

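Of the 67 values examined, 3 had 1 array far from the other 4, where chance alone gives about 1 in 20. In each it was replicate 2, the array with the widest ratios. H4c1 was at 0.502 there, with the nearest other array at -0.37, and its fitted ratio went from -0.30 to -0.47 without that array (limma adjusted p from 0.628 to 0.0158). Without replicate 3 the fitted ratio of H4c1 was -0.17 (limma adjusted p = 0.667). H2bc4 was at -0.314, with the nearest at -0.069, and its fitted ratio went from -0.065 to -0.012. Cpsf3, of the histone pre-mRNA processing list, was at 0.683, with the nearest at 0.12.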

How the results depend on the processing

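The number of histone probes called was 0 with no dye term, with no centring, over features measured on at least 4 arrays and with gene means, but 7 with the arrays scaled to the same spread, 7 with quantile normalization and 23 with array weights, all lower. With 1 array left out it ran from 0 to 19, the latter without replicate 2. Of all features, 1.5%, 1.77% and 9.61% passed in either direction under scaling, quantile normalization and array weights. The number of probes with a called dye effect, 1, was 8, 8 and 18 under scaling, quantile normalization and array weights, where 5.55%, 6.04% and 27.4% of all features passed, and 0 to 14 with 1 array left out. The cluster and variant medians and their difference moved by less than the spread between arrays in every alternative run, from -0.27 to -0.17, -0.20 to -0.083 and -0.16 to -0.0097. Of the fitted ratios of the 39 probes under 12 alternatives, 396 kept direction and side of the threshold, 56 passed newly and 16 changed sign, none of these called. H1f8 went to 0.0036 (quantile), 0.058 (array weights), and 0.0010, 0.036 and 0.012 (without replicates 2, 3 and 4), with a range of -0.050 to 0.036 over single arrays left out. H3f3a feature 2287 went to 0.0010 with no dye term and ran from -0.11 to 0.043 with 1 array left out, and feature 27454 to 0.018 with no dye term and from -0.080 to 0.058 with 1 array left out. H2bc21 ran from -0.032 to 0.046 with 1 array left out. H1f10 went to 0.026 as a gene mean, and its feature 26039 to -0.10 with array weights and from -0.35 without replicate 2 to 0.63 without replicate 3. The alternatives for the list medians, as those of the dye count, were added after seeing the data. These medians ran from -0.050 to -0.0041 for processing and -0.065 to -0.027 for chaperones. For the list of other histone genes they ran from -0.080 to 0.017. No separate paired analysis was run, because each array already sets a Dyrk1a sample against its control and every fitted ratio is thus paired by array. No filter on dim probes or slide block could be run on ratios alone.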

Other observations

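H4f16, an H4 gene whose symbol lies outside the naming rule, was named after its values were seen. Its probe was at -0.16, 0.45, -0.58, -0.55 and -0.53 in replicates 1 to 5, above 0 on replicate 2 and below it on the other 4 arrays, as the H4 probes of the clusters were other than H4c9. How far this probe separates H4f16 from those genes is not known here. The fitted log2 ratio was -0.32 (SE 0.14, 95% interval -0.65 to 0.019, limma adjusted p = 0.524), and -0.45 without replicate 2 (limma adjusted p = 0.0214). A further H4f16 probe had a value on 0 arrays.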
